A study of Mus musculus with 2 samples.

Results

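The genes described here encode integrins, laminins and the other proteins of the basement membrane, collagens excepted. They were found by symbol among the 24354 genes with deposited values. The search took every integrin α and β subunit and every laminin α, β and γ chain, and added Nid1, Nid2, Hspg2, Agrn, Fn1, Sparc and Vtn. This gave 44 genes, of which 26 encode integrin subunits and 11 encode laminin chains.

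Integrins are receptors made of an α and a β subunit that tie the cytoskeleton to the matrix outside the cell. Laminins are trimers of an α, a β and a γ chain that form the sheet-like base of a basement membrane, and nidogens and the proteoglycans perlecan and agrin bind to that sheet. In the early embryo these genes serve the first basement membranes, under the epiblast and along the parietal endoderm, and later the tubes and vessels of the organs.

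RNA was sequenced from differentiating mouse embryonic stem cells (ESCs) in 2 libraries, 1 of control ESCs (Diff–CONT) and 1 of inducible Ino80 knockout ESCs (Diff–iKO). According to the methods of the study, both lines came from blastocysts with the floxed Ino80 allele (Ino80 2f/2f), and the ROSA26-CreER transgene was present only in the knockout line. The sample labels instead give the genotypes as WT and Ino80 knockout. Both cultures spent 2 days in serum medium, 4 days as embryoid bodies (EBs) and, after attachment, 7 days in medium with serum, BMP4 and 0.5 µM 4-hydroxytamoxifen (4-OHTM), which activates CreER. With 1 library per condition, no difference has a replicate check and no p-value can be given.

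The values are FPKM, that is, fragments scaled by transcript length and library size. Pairs of values are given with Diff–CONT first and the library labelled Diff–iKO second. The steps in which low FPKM values rise gave 27277199 and 21257616 fragments over 21334 genes with a RefSeq length. These fragments gave each log2 ratio an exact 95% interval, which covers counting error only. The whole-gene value of the targeted gene was not lower, since Ino80 stood at 8.90 and 10.3 FPKM. That value is not resolved by exon, so loss of the floxed segment in these libraries was not tested. The study reports the deletion in undifferentiated ESCs by PCR genotyping and by qRT-PCR. Xist differed between the libraries, with FPKM values of 0.0639 and 3.59. Uty, Kdm5d, Eif2s3y and Ddx3y, all Y-linked, stood at 16.0% to 46.5% of their Diff–CONT values. A gene called higher or lower was so in the library labelled Diff–iKO, and no direction is credited to a loss of Ino80.

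The cells came from differentiation cultures in both libraries, but their cell type markers differed. The cut-off and the FPKM minimum are defined in the next paragraph. Of all genes that reached that minimum, 6.73% were past the cut-off upward and 8.39% downward. The 8 pluripotent cell markers summed to 448 and 2873 FPKM, and 7 of the 8 were past the cut-off upward. The 10 mesenchyme markers summed to 397 and 176.1, with 6 of the 9 expressed markers past the cut-off downward. The 9 epithelium markers summed to 1373 and 2015, with 2 of the 7 expressed markers past the cut-off upward. The part of these shifts in the values of integrins, laminins and basement membrane genes was not tested.

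The cut-off was a fold change of at least 2 with an FPKM of at least 2, the limits given in the methods of the study. Requiring that FPKM in at least 1 library and adding no pseudocount were choices made here. Of the 44 genes, 35 reached the FPKM minimum. Integrin β subunits made up most of the genes past the cut-off upward, namely Itgb1, Itgb3, Itgb6 and Itgb7, joined by the laminin chain gene Lama3. The integrin α subunit genes Itga4 and Itga2b were past it downward. These 5 higher genes are 14.3% of the 35, beside 6.73% of all 12376 genes that reached the minimum. The 2 lower genes are 5.71%, beside 8.39% of all genes. With a pseudocount of 0.1 the same 7 genes were past the cut-off, beside 6.52% of all genes upward and 8.1% downward. The median log2 ratio of FPKM + 0.1 was 0.25 over the 35 genes and 0.00 over all 12376 genes. Counting any difference, 23 of the 35 were higher, beside 49.7% of all genes.

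Most of these calls concern low values. Itgb6, Itgb7 and Lama3 reached the minimum only in the library labelled Diff–iKO, and Itga4 and Itga2b only in Diff–CONT, so they could enter the count only through the library in which they were high. Among the 29 genes with FPKM of at least 2 in both libraries, Itgb1 and Itgb3 were past the cut-off and no gene was past it downward, beside 4.37% and 5.1% of the 11161 genes under the same filter. With a fold change of 1.5 instead of 2, 14 genes were higher and 4 were lower, beside 14.9% and 17.6% of all genes.

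**Figure D1:**
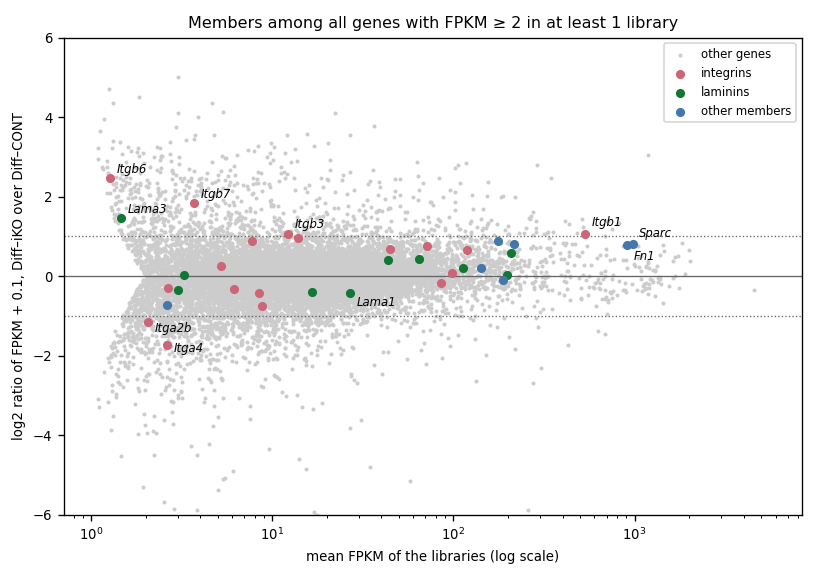
Each point is a gene with FPKM of at least 2 in at least 1 library, with its mean FPKM on a log axis against the log2 ratio of FPKM + 0.1, and the dotted lines mark a fold change of 2. Of 12376 genes, 25 lie outside the plotted range; Itgb1, Fn1 and Sparc lie at the right among the most abundant transcripts, while Itgb6, Itgb7, Lama3, Itga4 and Itga2b lie at low FPKM.

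The 300-base promoters of Itgb1, Itgb7, Itga4 and Itga2b are shown because these subunits were past the cut-off in opposite directions and each has a single start in RefSeq. They were chosen after the values were seen, and Itgb6, with a pair of starts, is not printed. Each runs from 250 bases before to 50 bases after the start of the gene, 5′ to 3′ on the gene's own strand, as given by RefSeq for GRCm38.p6. Capitals mark each CG dinucleotide, the site of DNA methylation.
Itgb1, chr8:128685404-128685703, plus strand: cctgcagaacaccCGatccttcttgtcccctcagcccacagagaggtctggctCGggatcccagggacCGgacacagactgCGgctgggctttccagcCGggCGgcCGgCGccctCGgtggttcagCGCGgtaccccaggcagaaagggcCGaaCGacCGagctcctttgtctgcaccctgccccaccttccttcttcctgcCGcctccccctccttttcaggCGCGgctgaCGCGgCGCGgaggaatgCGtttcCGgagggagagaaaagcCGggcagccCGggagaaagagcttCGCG
Itgb7, chr15:102231886-102232185, minus strand: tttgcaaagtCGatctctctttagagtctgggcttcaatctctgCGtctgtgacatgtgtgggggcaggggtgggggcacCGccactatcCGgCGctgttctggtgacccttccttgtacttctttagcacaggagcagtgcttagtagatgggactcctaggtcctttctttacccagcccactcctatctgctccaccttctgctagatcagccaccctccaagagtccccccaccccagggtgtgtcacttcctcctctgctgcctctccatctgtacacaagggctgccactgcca
Itga4, chr2:79255176-79255475, plus strand: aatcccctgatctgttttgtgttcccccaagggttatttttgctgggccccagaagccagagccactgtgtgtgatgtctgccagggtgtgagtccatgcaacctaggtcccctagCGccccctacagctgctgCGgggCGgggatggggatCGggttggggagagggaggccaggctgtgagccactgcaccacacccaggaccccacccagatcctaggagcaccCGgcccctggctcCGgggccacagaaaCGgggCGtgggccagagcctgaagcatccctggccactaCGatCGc
Itga2b, chr11:102469834-102470133, minus strand: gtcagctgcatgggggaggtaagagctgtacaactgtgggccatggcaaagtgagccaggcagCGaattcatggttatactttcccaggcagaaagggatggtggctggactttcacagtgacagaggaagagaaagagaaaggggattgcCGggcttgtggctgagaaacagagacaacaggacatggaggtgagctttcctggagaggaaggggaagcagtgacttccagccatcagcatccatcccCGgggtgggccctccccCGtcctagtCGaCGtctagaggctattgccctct

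The promoter of Itgb1 held 27 CG dinucleotides, that of Itga4 held 10, that of Itga2b held 6 and that of Itgb7 held 5. The median was 7 over all 32851 promoters of this length and 21 over the 12135 promoters of genes that reached the FPKM minimum. The GC box GGGCGG, searched on both strands, occurred once in the promoters of Itgb1 and Itga4 and was not found in those of Itgb7 and Itga2b. It was present in 16 of the 32 promoters matched to 28 of the 44 genes, against 35.7% of all promoters and 63.8% of those of genes at or above the minimum. The genes past the cut-off upward thus included both one with a CG-rich and one with a CG-poor promoter.

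Among the integrin β subunits, Itgb1 was by far the most abundant. Itgb1 is the shared β subunit of most receptors for laminin, collagen and fibronectin, and lies on chromosome 8 from 128685654 to 128733200 (GRCm38, on which all positions are given). It stood at 345 and 717 FPKM, and the log2 ratio was 1.06 (interval 1.04 to 1.07). It moved from rank 153 to rank 82 among all genes by FPKM. When both libraries were scaled to the same sum of FPKM, the fold of 2.08 became 1.95 and no longer reached the cut-off.

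Itgb3 pairs with the αV subunit to bind vitronectin and with the αIIb subunit on platelets. Its FPKM was 7.90 and 16.4, a log2 ratio of 1.06, with the cut-off inside the interval of 0.96 to 1.16. Its fold of 2.08 also became 1.95 with equal sums, and 1.96 with a pseudocount of 1.

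Itgb7 is a subunit of lymphocyte receptors, and lies on chromosome 15 from 102215995 to 102231944. Its FPKM was 1.57 and 5.86, resting on 117 and 327 fragments (log2 ratio 1.90, interval 1.59 to 2.22). Itgb6, an epithelial subunit that pairs with αV, had the highest ratio of the 35 genes, with an FPKM of 0.318 and 2.21 from 27 and 139 fragments (log2 ratio 2.80, interval 2.18 to 3.43). Its 2 RefSeq promoters held 3 and 12 CG dinucleotides and no GC box. It lies on chromosome 2 from 60598292 to 60722643. Its fragments were counted with the shorter of its annotated transcripts, so they are approximate. Both genes remained past the cut-off with a pseudocount of 1, with log2 ratios of 1.42 for Itgb7 and 1.28 for Itgb6.

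The other β subunits were not past the cut-off. Itgb4, the subunit of hemidesmosomes, had an FPKM of 5.44 and 10.1, a fold of 1.85. Itgb5, a vitronectin receptor subunit, was the second most abundant and stood at 90.6 and 80.6. Itgb8, which binds latent TGF-β together with αV, was 2.93 and 2.35. The leukocyte subunit Itgb2 was below the minimum with 0.311 and 0.117.

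**Figure D2:**
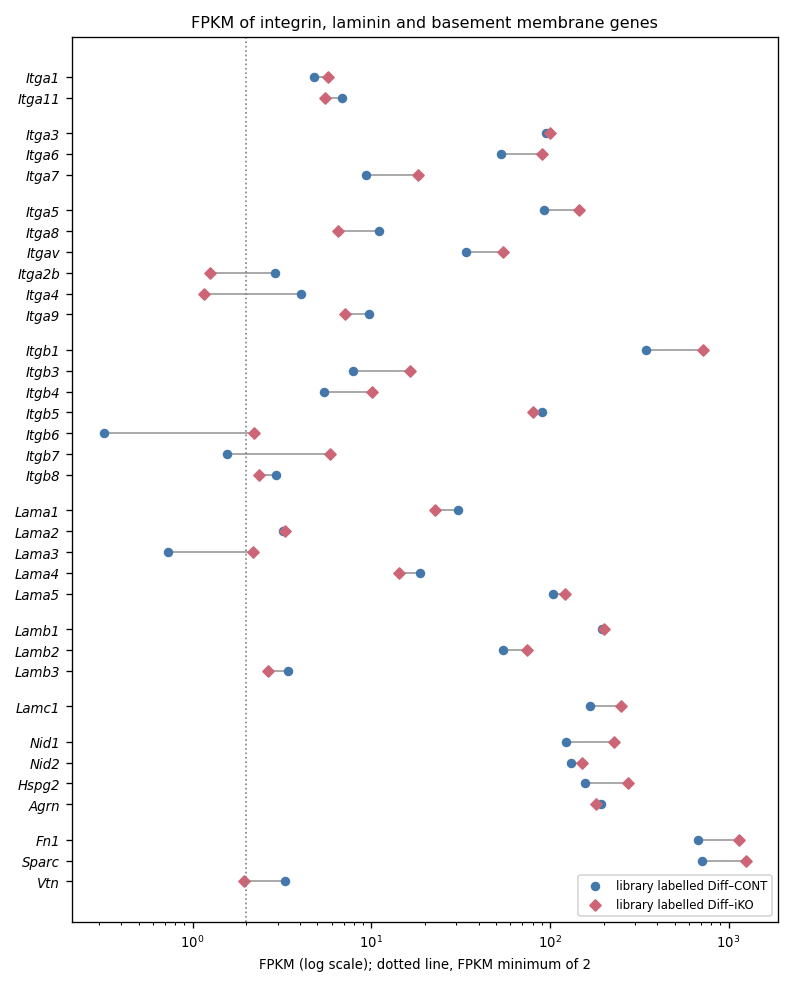
FPKM on a log axis of 34 of the 35 genes that reached an FPKM of 2 in at least 1 library, with a circle for the Diff–CONT library and a diamond for the library labelled Diff–iKO, grouped from top to bottom as α subunits, β subunits, laminin chains, nidogens with proteoglycans and glycoproteins. The distance between circle and diamond is the fold change; it is widest for Itgb6, from 0.318 to 2.21.

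None of the 3 α subunits that bind laminin was past the cut-off. Itga6, the main laminin receptor subunit of ESCs and epithelia, had an FPKM of 53.2 and 90.5 (log2 ratio 0.77, interval 0.72 to 0.81). Itga7, the laminin receptor subunit of muscle, was 9.36 and 18.2, and its fold of 1.95 lay just under the cut-off with an interval on the log2 ratio of 0.85 to 1.07. Itga3 was 94.99 and 101, a log2 ratio of 0.09 that turned to -0.01 with equal sums.

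Of the 6 α subunits that bind fibronectin, RGD ligands or related proteins, 0 were past the cut-off upward and 2 downward, Itga4 and Itga2b. Of all genes that reached the FPKM minimum, 6.73% were past the cut-off upward and 8.39% downward. Itga4 and Itga2b reached that minimum only in the Diff–CONT library. The other 4 α subunits did not pass the cut-off and lay on both sides of their Diff–CONT values. Itga5, the classic fibronectin receptor subunit, had an FPKM of 92.6 and 146, a fold of 1.58. Itgav, the partner of several β subunits, was 34.0 and 55.0, a fold of 1.62. Itga8, the receptor subunit for nephronectin in the developing kidney, was 11.0 and 6.55. Itga9, which binds tenascin among other ligands, was 9.70 and 7.15.

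Itga4, which binds fibronectin and the vascular adhesion molecule VCAM1, lies on chromosome 2 from 79255426 to 79333123. It stood at 4.06 and 1.15 FPKM, and so at 28.4% of the Diff–CONT value (1162 and 247 fragments, log2 ratio -1.82, interval -2.02 to -1.62). Itga2b, the platelet and megakaryocyte subunit αIIb, lies on chromosome 11 from 102453297 to 102470122 and was 2.89 and 1.25. Its log2 ratio was -1.21, the cut-off lay inside the interval of -1.56 to -0.86, and with a pseudocount of 1 it was -0.79. In RNA from whole cultures, fewer cells of a type and less RNA per cell cannot be told apart.

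Markers of vessels and megakaryocytes were read beside these subunits. The 10 endothelium markers summed to 68.1 and 31.1 FPKM. Of the 9 expressed ones 6 were past the cut-off downward, beside 8.39% of all genes. Most of these 6 reached the FPKM minimum only in Diff–CONT, the library in which they were high. Of the 9 megakaryocyte markers, 1 reached the minimum, Ppbp with 7.79 and 13.2. The list summed to 11.1 and 14.8 with Ppbp and to 3.28 and 1.66 without it, a sum added after the values were seen. The others were low in both libraries, with Pf4 at 1.66 and 0.110, Gp1bb at 0.410 and 1.23, and Gp1ba and Gp6 listed at 0 in the library labelled Diff–iKO. The part of these cell types in the lower values of Itga4 and Itga2b was not tested.

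The collagen-binding α subunits were low. Itga11 had an FPKM of 6.85 and 5.49 and Itga1 of 4.77 and 5.70, while Itga10 (1.59 and 1.92) and Itga2 (0.620 and 0.675) stayed below the minimum. All 5 leukocyte α subunits, Itgad, Itgae, Itgal, Itgam and Itgax, were below it as well, between 0 and 0.603. The highest value among them was that of Itgal in the library labelled Diff–iKO, with 68 fragments against 22. Itgad and Itgax had 1 and 3 fragments in the Diff–CONT library and were listed at 0 in the other. Of the 10 leukocyte markers, Cd68 (10.5 and 27.1) and Csf1r (2.91 and 12.8) reached the minimum, both past the cut-off upward. The other 8 stayed below the minimum. Among them Ptprc, the common leukocyte antigen, was 0.0734 and 0.00893, Lyz2 was 0.497 and 0.0511, Fcer1g was 0.565 and 0.188, and Tyrobp and Cx3cr1 were listed at 0 in the library labelled Diff–iKO. Cd14 (0.474 and 0.725), Spi1 (0.145 and 0.233) and Adgre1 (0.0109 and 0.0146) had the higher value there.

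**Figure D3:**
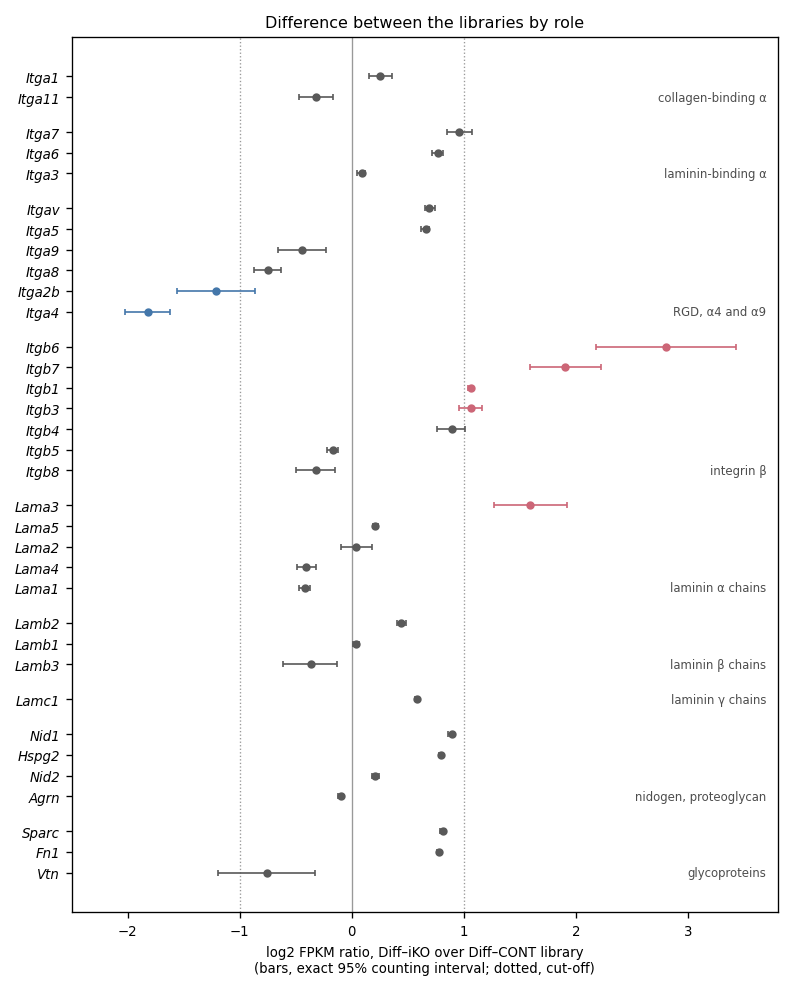
Log2 ratios of FPKM, labelled Diff–iKO over Diff–CONT, for 34 of the 35 genes by role, with exact 95% counting intervals as bars and dotted lines at the cut-off of 1 and -1. Genes past the cut-off are coloured; 4 of them are β subunits on the right, and Itga4 and Itga2b lie on the left.

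The FPKM of β subunits was also set against that of their partners. Some α subunits pair with several β subunits, so these RNA ratios do not measure assembled receptors. The FPKM of the 12 α subunits known to pair with Itgb1 summed to 323 and 439, a fold of 1.36, while Itgb1 had a fold of 2.08. There were thus 1.07 FPKM of Itgb1 per FPKM of its partners in Diff–CONT, against 1.63. For Itgb7 no such quantity is given, since Itgb7 and its partner Itga4 reached the FPKM minimum in opposite libraries. Its other partner Itgae was below the minimum in both (0.0914 and 0.208). Itgb4 and its partner Itga6 had folds of 1.85 and 1.70, so that this pair kept 0.102 and 0.111 FPKM of β per FPKM of α. For Itgb3 with its partners Itgav and Itga2b, the ratio was 0.214 and 0.292. Itgb1 made up 76.0% of the summed β subunit FPKM in the Diff–CONT library (interval 75.6% to 76.4%) and 85.9% in the other (85.6% to 86.2%), while Itgb5 made up 20% and 9.65%.

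The laminin chain genes had a lower median ratio than the integrin genes. The median log2 ratio of FPKM + 0.1 was 0.13 over the 10 laminin genes that reached the minimum and 0.45 over the 18 integrin genes. Across the alternative settings it ranged from 0.03 to 0.21 for laminins and from 0.18 to 0.68 for integrins. The integrin median joined 0.09 over the 11 α subunit genes and 1.05 over the 7 β subunit genes that reached the minimum. Of these β subunit genes, Itgb6 and Itgb7 reached it only in the library labelled Diff–iKO. These differences were not tested. Lama3 was the single laminin gene past the cut-off.

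The embryonic laminin trimer consists of the chains encoded by Lama1, Lamb1 and Lamc1, and none of these genes was past the cut-off. Lama1, the first α chain of the embryo and of parietal endoderm, stood at 30.5 and 22.8 FPKM (log2 ratio -0.42, interval -0.47 to -0.37). Lamb1 was 195 and 200.2, and its log2 ratio of 0.04 turned to -0.06 with equal sums. Lamc1, the γ chain of most laminins, was 167 and 250, a fold just under 1.5 (log2 ratio 0.58, interval 0.56 to 0.60).

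Markers of parietal endoderm, the cell layer known for abundant Lama1, Lamb1, Lamc1 and Sparc, were lower. Of the 10 markers, 9 reached the minimum and 6 were past the cut-off downward, among them Gata4 (20.1 and 2.56) and Sox17 (5.36 and 0.317), while Plat (44.6 and 41.6) and Thbd (9.91 and 12.0) were close in both libraries. The markers summed to 170 and 77.7, and none was at 0. Visceral endoderm markers summed to 328 and 21.6, with 9 of 10 past the cut-off downward and 1 upward. Most of these 9 reached the FPKM minimum only in Diff–CONT, the library in which they were high. Of all genes that reached the minimum, 8.39% were past the cut-off downward. The part of either cell type in the laminin values was not tested.

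Among the other α chains, Lama5, the main α chain of epithelial basement membranes and of ESCs, was the most abundant with an FPKM of 104 and 121. Lama4, an endothelial and mesenchymal chain, was 18.8 and 14.2. Lama2, the chain of muscle and nerve, was 3.22 and 3.31, and its log2 ratio was 0.04 (interval -0.10 to 0.18), turning to -0.05 with equal sums. Lama3, a chain of skin and other epithelia on chromosome 18 from 12333819 to 12583013, was 0.725 and 2.18 (log2 ratio 1.59, interval 1.27 to 1.92). The log2 ratio dropped to 0.88, under the cut-off, when a pseudocount of 1 was added. Its fragments, 116 and 262, were counted with the shorter of its annotated transcripts, so they are approximate.

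Lamb3, whose chain joins that of Lama3 in the epithelial trimer of skin, did not share its ratio. Its FPKM was 3.41 and 2.65, the opposite direction. Lamb2, the β chain of muscle, vessels and kidney, was 54.7 and 74.1, a fold of 1.36. Lamc3 was below the minimum with 0.388 and 0.381.

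Among the laminin α chains, Lama5 made up 66.2% of the summed FPKM (interval 65.8% to 66.7%) and 74.0% (73.5% to 74.5%), and Lama1 made up 19.4% (19.0% to 19.7%) and 13.9% (13.6% to 14.3%). The share of Lamb1 among β chains was 77.1% and 72.3%. The order of the chains by FPKM within each of these classes was the same in both libraries.

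**Figure D4:**
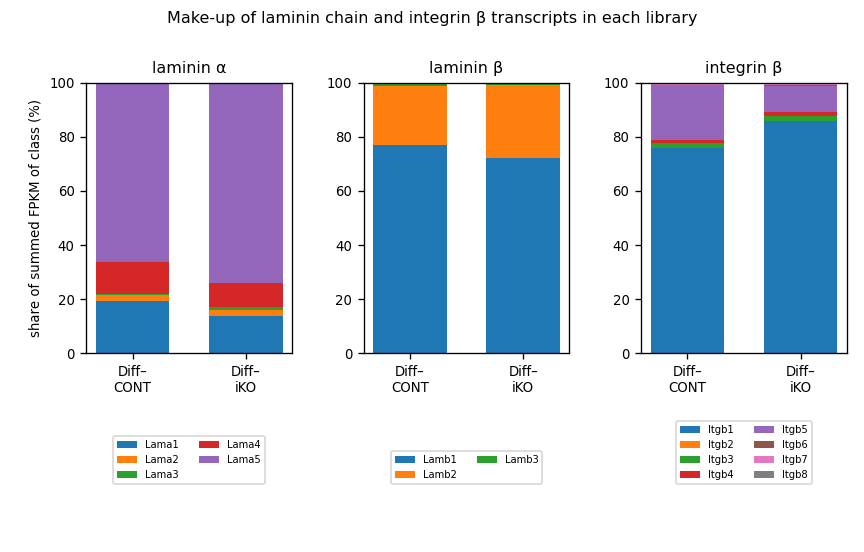
Stacked bars give each gene's share of the summed FPKM of its class in the Diff–CONT library (left bar) and the library labelled Diff–iKO (right bar), for laminin α and β chains and integrin β subunits, with no error drawn. Lama5 takes 66.2% and 74.0% of the α chains and Itgb1 76.0% and 85.9% of the β subunits.

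The proteins that join the laminin sheet were encoded by abundant transcripts, and none of the 4 genes was past the cut-off. Nid1, which links laminin to collagen IV, had an FPKM of 123 and 228 (log2 ratio 0.89, interval 0.86 to 0.91). Hspg2, which encodes the heparan sulfate proteoglycan perlecan, was 157 and 273 (0.80, interval 0.78 to 0.81). The related genes had smaller differences, with Nid2 at 131 and 152 and Agrn, the agrin gene, at 194 and 181.

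The matrix glycoproteins included the most abundant genes of the set. Sparc, a collagen-binding protein made in bulk by parietal endoderm and bone, stood at 708 and 1244 FPKM, and moved from rank 81 to rank 34 among all genes. Fn1, which encodes fibronectin, the ligand of the receptor of Itga5 and Itgb1, was 672 and 1149.85, at ranks 86 and 40. Their log2 ratios were 0.81 and 0.78, both under the cut-off. Vtn, the vitronectin gene, was 3.29 and 1.94, from 153 and 68 fragments, and did not pass the cut-off.

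Of the abundant genes of the set, only Itgb1 reached the cut-off. The mean FPKM was 100 or more for 11 genes, of which 10 were higher, the exception being Agrn, 6 were higher by 1.5-fold or more and 1, Itgb1, by 2-fold. Among all 689 genes of that level, 61.1% were higher, 23.7% by 1.5-fold and 10.2% by 2-fold. The median log2 ratio was 0.66 over the 11 genes and 0.16 over the 689.

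Genes that work with integrins inside the cell were compared as a list of 33, of which 30 reached the minimum. Of these, 0 were past the cut-off upward and 1 downward, the adaptor gene Nedd9 (13.4 and 6.36), beside 15.1% of all genes past it in either direction. The median log2 ratio of FPKM + 0.1 was 0.16. The most abundant members were the actin-binding genes Flna (301 and 537), Actn4 (185 and 262) and Actn1 (163 and 250.02). The talin gene Tln1 (59.7 and 84.3) and the vinculin gene Vcl (76.0 and 102) did not pass the cut-off, nor did Ilk, the integrin-linked kinase gene, at 98.3 and 99.8 and its partner Parva at 46.3 and 32.4.

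Other receptors for laminin are the dystroglycan complex and Bcam. Of 12 genes, namely Bcam and those of dystroglycan, its partners and its glycosylating enzymes, 11 reached the minimum. Of these, 0 were past the cut-off in either direction, beside 15.1% of all genes, and the median was 0.10. Dag1, which encodes dystroglycan, was 101 and 148, Bcam was 166 and 132, Pomgnt1, which encodes an enzyme that glycosylates dystroglycan, was 31.4 and 42.2, and the utrophin gene Utrn was 35.2 and 37.8. Dmd, at 1.48 and 2.92, lay just under the cut-off with a fold of 1.98.

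Among further basement membrane genes outside the set, the genes past the cut-off were all lower. Of 16 genes, 14 reached the minimum, and 6 of these 14 (42.9%) were past the cut-off downward and 0 upward, beside 8.39% and 6.73% of all genes. The median log2 ratio was -0.54. The Fraser complex, which anchors epithelia to the tissue below during organ formation, accounted for Frem2 (33.5 and 7.35), Fras1 (11.4 and 3.21) and Frem1 (9.98 and 2.85). Egflam, which encodes the dystroglycan ligand pikachurin (7.45 and 1.64), Smoc2 (17.7 and 6.17) and the hemicentin gene Hmcn1 (3.19 and 1.18) were the others. Egflam and Hmcn1 reached the minimum only in Diff–CONT, and so could enter the count only through the library in which they were high. Npnt, the nephronectin gene, was 33.4 and 21.2, which did not pass the cut-off. The 3 most abundant genes of the list were not past the cut-off, namely Tinagl1 (91.4 and 173), Pxdn (129 and 104) and Fbln2 (68.3 and 86.5).

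**Figure D5:**
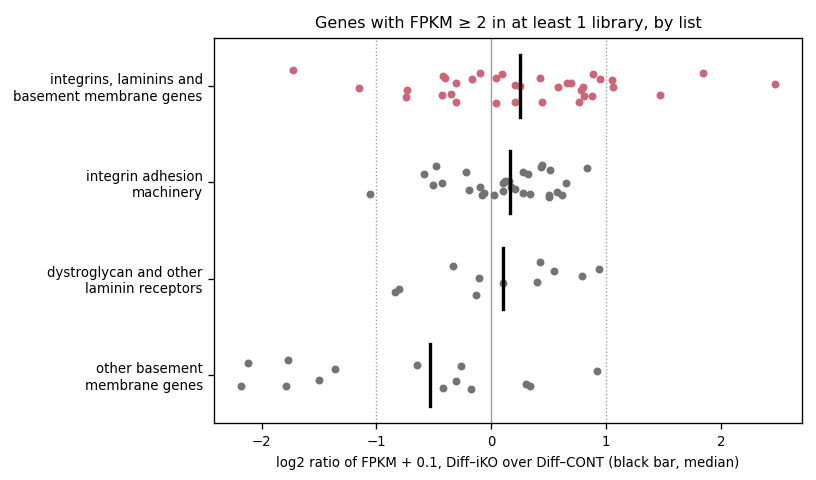
Log2 ratio of FPKM + 0.1 of each gene with FPKM of at least 2 in at least 1 library, for the 35 integrin, laminin and basement membrane genes and 3 further lists, with a black bar at each median and dotted lines at the cut-off. The medians are 0.25, 0.16, 0.10 and -0.54 from top to bottom; points are spread vertically for display only.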

How the data were processed

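mRNA of 2 libraries, 1 per condition, was measured. The authors deposited FPKM values per gene, made per the labels and methods with STAR 2.7.9a, mm10 and Cuffquant and Cuffnorm of Cufflinks 2.2.1; the methods sentence opens with public datasets. The gene annotation and strand setting are not given in the sources used here, so overlapping genes are uncertain. Columns were assigned by name.

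Log2 ratios were taken without a pseudocount, medians with 0.1. All 44 genes matched GENCODE vM21 (GRCm38). Depth was recovered from genes whose only RefSeq transcript is 1000 nucleotides or longer, where 87.6% (Diff–CONT) and 87.8% (Diff–iKO) of low values were whole multiples of a step within 0.2, against 40% by chance. Fragments use each gene's shortest RefSeq transcript. Intervals are Clopper-Pearson 95% intervals. For shares, the interval of the fragment share was carried to the FPKM scale.

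The members and lists were chosen with earlier results of these data known. Members were named by rule, with list genes past the cut-off or among the 3 most abundant, and the other list genes were chosen after their values were seen. A member and a marker gene stay in the counts but are not reported here. Steps were tested on simulated data. Alternatives were other pseudocounts, FPKM filters, fold changes, scalings and summed symbols. Software was scipy 1.17.1, pandas 2.3.3, numpy 2.4.6 and, for plots, matplotlib 3.10.9, under Python 3.11.15.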

Additional observations from a re-analysis of the deposited data

How the results depend on the processing

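The 5 of 35 genes past the cut-off upward became 3 with a pseudocount of 1 (5.22% of all genes), 2 of 29 with FPKM of at least 2 in both libraries (4.37%), 3 of 27 with a minimum of 5 (5.52%), 3 with equal sums (5.7%), 14 at a fold change of 1.5 (14.9%) and 1, Itgb6, at 4 (2.25%). The 2 of 35 genes past it downward became 1 with a pseudocount of 1 (5.75% of all genes), 0 of 29 with the minimum in both libraries (5.1%), 0 of 27 with a minimum of 5 (6.54%), 5 of 44 with no filter (14.7%), 4 at a fold change of 1.5 (17.6%) and 0 at 4 (1.91%). With no filter, the upward count was 7 of 44, beside 14.9% of all genes. The remaining settings left both counts within 1.5 times. The median of 0.25 over the set was 0.44 with a minimum of 5. The integrin median of 0.45 was 0.68 with a minimum of 5, 0.18 with no filter and 0.36 with equal sums. The laminin median of 0.13 was 0.04 with the minimum in both libraries, 0.21 with a minimum of 5, 0.04 with no filter and 0.03 with equal sums. The stricter filters test fewer genes, and equal sums shift every log2 ratio by -0.09. Of 210 log2 ratios of single genes under the alternatives, 182 stayed within their counting interval. No symbol was listed more than once, so summing symbols could not move a ratio. The 182 include the ratios of all 35 genes under that setting. Scaling to a median ratio of 0 shifted every log2 ratio by only -0.01. Of the called genes 0 changed sign, while Itga3, Lama2 and Lamb1 changed sign with equal sums. No paired analysis was possible because each condition has 1 library. Depth limits the genes with few fragments, such as Itgb6 (27 in the Diff–CONT library) and Vtn (68 in the library labelled Diff–iKO).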

Other observations

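Several of the genes are neighbours on a chromosome, and neighbours did not always share a direction. Itga1 and Itga2, 21.0 kb apart on chromosome 13, had folds of 1.19 and 1.09 in the library labelled Diff–iKO. Itga2b and Itgb3, whose products form the platelet receptor, lie 2137878 bases apart on chromosome 11 and had folds of 0.43 and 2.08. Itga4 and Itgav, 4391274 bases apart on chromosome 2, had folds of 0.28 and 1.62. These pairs were listed after the values were seen, from those with a gap under 5 Mb, which also hold Itgb7 with Itga5 (3.74 and 1.58) and the leukocyte cluster on chromosome 7, whose genes were all below the FPKM minimum.

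Trophoblast markers summed to an FPKM of 103.9 and 130.0, with 7 of 9 past the cut-off upward and Hand1 downward (70.8 and 31.3). Most of these 7 reached the FPKM minimum only in the library labelled Diff–iKO, in which they were high. Of all genes that reached the minimum, 6.73% were past the cut-off upward and 8.39% downward. The 10 muscle markers summed to 57.3 and 14.4, with 4 of the 5 expressed ones past the cut-off downward. Most of these 4 reached the minimum only in Diff–CONT, in which they were high. Whether trophoblast or muscle cells account for any value of an integrin or laminin gene was not tested.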
